A study of Mus musculus with 7 samples.

Results

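Desmosomes are spot-like junctions that fasten neighbouring epithelial cells to each other and anchor the keratin filaments of both. The transcripts of 9 desmosome genes and of Cdh3, which encodes P-cadherin, were examined in basal cells sorted from mouse mammary glands. The 10 genes were chosen by name from a table of 56440 gene features, and 9 of them were found by their symbol. Desmoplakin, Dsp, had no row of its own name. An unnamed feature (GSMG0050899) has exactly the start, end and strand that GENCODE M21 gives for Dsp on chromosome 13. Its values are given as the Dsp position, and it is kept out of every count of members. Dsg3 was present but too low to be tested, which left 8 named genes with a test.

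Basal cells were isolated by flow cytometry on day 2 of lactation after enzymatic digestion of fresh glands. There were 4 control libraries (Ctrl, titled Blg negative) and 3 libraries from the genotype a3a6KO (titled DKO and Blg positive), described by the submitters as biological replicates. The replicate numbers used here follow the order of deposition and pair nothing. From what is known of the study, Blg is a Cre recombinase driven by the beta-lactoglobulin promoter, which is active in luminal cells of the lactating gland, and the mutant lacks the laminin-binding integrin subunits α3 and α6 there. The basal cells are therefore neighbours of the targeted cells, and the comparison asks whether they differ. All mutants and no controls carried Blg, so its effect and the loss of the integrins cannot be told apart. Strain, age and the sorting markers are not given in these sources.

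The membrane part of a desmosome consists of desmogleins and desmocollins, cadherins that bind across the gap between cells. Plakoglobin (Jup) and the plakophilins (Pkp1, Pkp2, Pkp3) hold their tails inside the cell, and desmoplakin ties these to keratin filaments. Dsg2, Dsc2 and Pkp2 are the forms of simple epithelia and of the heart, whereas Dsg3, Dsc3 and Pkp1 are typical of stratified epithelia. In the mammary gland desmosomes join the luminal layer to the contractile basal layer, and P-cadherin, a cadherin of adherens junctions, marks the basal layer. Plakoglobin belongs to both kinds of junction.

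The sorted cells carried basal markers at high levels, and 13 of 13 on the list were high enough to test. The normalised read count of Acta2, the smooth muscle actin of myoepithelial cells, was 460944 to 727845 over the 7 libraries, and that of the basal keratin gene Krt14 was 35785 to 79196. Milk protein and other luminal transcripts were also present, and the milk casein gene Csn2 ranged from 44720 (a3a6KO replicate 1) to 431668 (Ctrl replicate 4). Of 12 endothelial markers, 12 had higher means in a3a6KO, with a median log2 fold change of 1.02, a summed level of 4626 to 7626 in Ctrl and 9623 to 14054 in a3a6KO, and none at 0. None of them passed limma's adjusted threshold, and 7 passed DESeq2's, where 0.456% of all features tested did. In 8 of them all mutant values lay above all controls, where 7.51% of features had groups that did not overlap, in either direction. The part of endothelial RNA in the values below was not tested. Reads recovered from the table ran from 9368418 (a3a6KO replicate 3) to 21548279 (Ctrl replicate 4). In RNA from pooled cells, fewer cells of a type and less RNA per cell cannot be told apart.

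Plakoglobin and desmoplakin link the membrane cadherins to the filaments. Jup and the unnamed feature at the Dsp position lay far apart in level. The promoters of Jup and Dsp, from RefSeq on GRCm38.p6, are shown for a match of position. The RefSeq start of Dsp falls on the first base of the unnamed feature, which adds to the match with GENCODE. The RefSeq start of Jup likewise falls on the first base of its feature, but the ends of that feature differ from those in GENCODE. Each window runs from 250 bases before to 50 bases after the start. That of Jup is chr11:100397741-100398040 on the minus strand, and that of Dsp is chr13:38151044-38151343 on the plus strand. Capitals mark the GC box GGGCGG on either strand (written CCGCCC where it lies on the other strand), the CCAAT box, and CAGGTG, which the Snail family of repressors can bind.
Jup: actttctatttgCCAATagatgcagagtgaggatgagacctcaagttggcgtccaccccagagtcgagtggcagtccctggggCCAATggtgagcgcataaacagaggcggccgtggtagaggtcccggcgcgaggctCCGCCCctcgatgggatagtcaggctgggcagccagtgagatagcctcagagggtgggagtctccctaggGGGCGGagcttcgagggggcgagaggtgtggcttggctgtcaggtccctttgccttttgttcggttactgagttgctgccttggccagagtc
Dsp: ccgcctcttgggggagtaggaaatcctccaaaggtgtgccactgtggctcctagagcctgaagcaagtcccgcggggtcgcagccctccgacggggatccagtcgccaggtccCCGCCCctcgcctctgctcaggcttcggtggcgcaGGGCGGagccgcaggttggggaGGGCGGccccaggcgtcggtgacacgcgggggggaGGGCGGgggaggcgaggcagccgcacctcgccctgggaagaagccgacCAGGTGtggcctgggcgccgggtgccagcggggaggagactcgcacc

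The Jup window held 2 GC boxes, at -112 and -42, and 2 CCAAT boxes, at -238 and -167. The Dsp window held 4 GC boxes, at -137, -102, -80 and -45, and 1 CAGGTG at 4, counted from the first transcribed base as 1. A GC box was present in 35.7% of 32851 mouse promoter windows of this length, CCAAT in 37.4% and CAGGTG in 20.2%, searched on both strands. The letters of AP-1 (TGANTCA, 7.81% of windows), the TATA box (TATAAA, 13.6%), TEAD (GGAATG, 14.7%) and Grainyhead (AACNGGTT, 2.09%) were found in neither window. G and C made up 60.7% of the Jup window and 73.0% of the Dsp window, where the median window had 52.67%. These matches describe letters and not bound sites.

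Jup (GSMG0007388, mm10 chromosome 11, 100367022 to 100397790) had the highest level of the members. Its normalised read count was 14312, 11537, 10118 and 12929.5 in Ctrl replicates 1 to 4 and 12106, 13529.9 and 18698 in a3a6KO replicates 1 to 3. Only a3a6KO replicate 3, the shallowest library, stood above the controls, and the groups overlapped. The means were 12224 ± 1804 (SD, n = 4) and 14778 ± 3469 (SD, n = 3). The log2 fold change, a3a6KO minus Ctrl on log2(value + 1), was 0.26 (SE 0.19, 95% interval -0.17 to 0.69, limma adjusted p = 0.839). It was 0.078 without a3a6KO replicate 3, 0.39 without a3a6KO replicate 1, 0.17 without Ctrl replicate 3 and 0.15 with library weights. Jup ranked 145 by mean among the 16889 features tested.

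The Dsp position (chromosome 13, 38151294 to 38198577) had 828, 588, 500.4 and 555 normalised reads in Ctrl replicates 1 to 4 and 434, 514 and 706 in a3a6KO replicates 1 to 3. The highest value was in a control and the lowest in a mutant library, with the rest intermixed. The log2 fold change was -0.17 (SE 0.22, 95% interval -0.66 to 0.33, limma adjusted p = 0.904). It was -0.0092 without a3a6KO replicate 1, -0.017 without Ctrl replicate 1, -0.26 without Ctrl replicate 3, -0.36 without a3a6KO replicate 3 and -0.29 with library weights. A short gene on the opposite strand, Gm10129, lies within this span at a mean of 0.690, and an unnamed opposite feature of 25 bases has a mean of 10.4. Whether reads were counted by strand is not stated in the sources used here.

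Plakophilins sit beside plakoglobin in the plaque, and 1 of the 3 made up most of their transcripts. Pkp3 (GSMG0035339, chromosome 7, 141078229 to 141090509) had 7654, 6668, 5346 and 5718 normalised reads in Ctrl and 6178, 7267 and 6955 in a3a6KO. Pkp1 (GSMG0002142, chromosome 1, 135871394 to 135919209) had 1683, 1484, 1392 and 1688 normalised reads in Ctrl against 1466, 1307 and 2135 in a3a6KO. The mutant values of Pkp3 lay among the controls. Those of Pkp1 ran from below all controls (1307, a3a6KO replicate 2) to well above them (2135, a3a6KO replicate 3). The log2 fold change was 0.11 for Pkp3 (SE 0.16, 95% interval -0.24 to 0.46, limma adjusted p = 0.911), and ran from 0.032 (Ctrl replicate 3 left out) to 0.21 (Ctrl replicate 1 left out). For Pkp1 it was 0.04 (SE 0.18, 95% interval -0.37 to 0.45, adjusted p = 0.972), and its sign turned with quantile normalisation (-0.0090), library weights (-0.052) and on leaving out Ctrl replicate 3 (-0.014) or a3a6KO replicate 3 (-0.17). Corrected for exon length, Pkp3 made up 82.8% to 89.2% of plakophilin transcripts per library, Pkp1 10.5% to 16.7% and Pkp2 0.0666% to 1.02%.

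Pkp2 (GSMG0014714, chromosome 16, 16213313 to 16272712), the plakophilin of simple epithelia and heart, was scarce and the most uneven of the members tested. It had 12.05, 4.85, 61.5 and 59.0 normalised reads in Ctrl replicates 1 to 4 and 13.3, 23.7 and 37.4 in a3a6KO replicates 1 to 3, from 6 to 78 recovered reads. Ctrl replicates 3 and 4 stood highest and Ctrl replicate 2 lowest, so the controls spanned the mutants. The fold between the highest and the lowest library was 12.7, against 1.40 to 3.72 for the other 7 named genes tested. The log2 fold change was 0.04 (SE 0.84, 95% interval -1.86 to 1.95, limma adjusted p = 0.995). Its sign turned with a pseudocount of 5 (-0.049), with edgeR (-0.52) and DESeq2 (-0.49), and without Ctrl replicate 1 (-0.23), Ctrl replicate 2 (-0.62) or a3a6KO replicate 3 (-0.30). DESeq2 gave Pkp2 no adjusted p.

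The order of Pkp2 over the libraries resembled that of luminal transcripts. The mean log2(value + 1) of 15 luminal markers was 9.55, 9.34, 10.71 and 11.16 in Ctrl replicates 1 to 4 and 9.69, 9.85 and 10.68 in a3a6KO replicates 1 to 3. Across these 7 libraries Pearson's r with Pkp2 was 0.939 and Spearman's rho 0.964, and r was 0.902 without the 2 libraries farthest from the median luminal mean. The mean of the immune markers tested gave rho = 0.821, so the relation was not only with luminal markers, and the points share libraries and depth. For Pkp1 the same rho with luminal markers was 0.143 and with basal markers 0.786. Its r with luminal markers was 0.377, or 0.715 without the 2 farthest libraries. For Jup these were 0.133 and 0.909, so r without the farthest libraries does not set Pkp2 apart. The summed level of the luminal markers was 115591 to 674083 in Ctrl and 91150.4 to 303094 in a3a6KO, 10 of the 15 tested had a fold change below 0, and none of these 15 was at 0. The part of luminal RNA in the Pkp2 values was not tested.

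**Figure D1:**
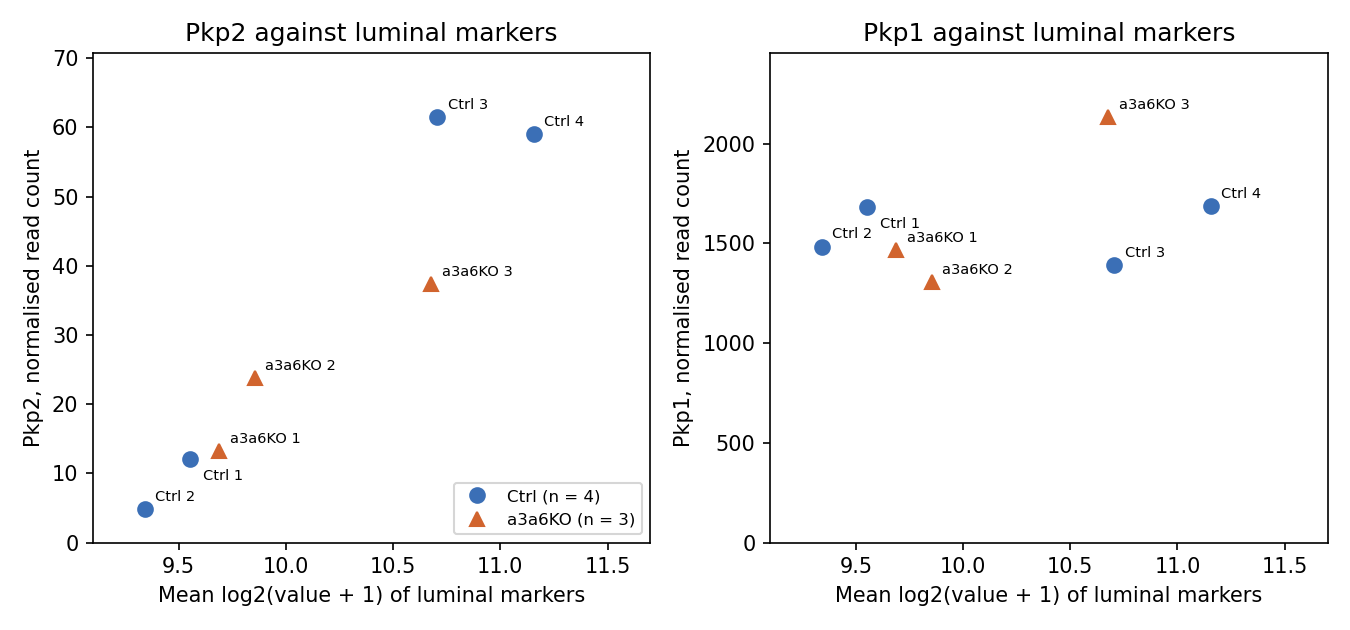
Normalised read count of Pkp2 (left) and Pkp1 (right) in each of the 7 libraries, against the mean log2(value + 1) of 15 luminal markers in the same library. Pkp2 runs from 4.85 at the lowest luminal mean, 9.34, to 61.5 and 59.0 at 10.71 and 11.16, while Pkp1 has its highest value, 2135, in a3a6KO replicate 3 and no matching order.

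The 4 desmosomal cadherin genes lie in 1 cluster on chromosome 18, and Dsg2 was the most abundant of them. Dsg2 (GSMG0018103, 20558074 to 20604526), the desmoglein of simple epithelia, had 1129.6, 1053, 859 and 907 normalised reads in Ctrl and 843, 809.6 and 1066 in a3a6KO. The groups overlapped, and their means were 987 ± 126 (SD, n = 4) for Ctrl and 906 ± 139 (SD, n = 3) for a3a6KO. The log2 fold change was -0.13 (SE 0.15, 95% interval -0.47 to 0.22, limma adjusted p = 0.898), and ran from -0.25 (a3a6KO replicate 3 left out) to -0.049 (a3a6KO replicate 2 left out). A feature of 67300 bases on the opposite strand overlaps Dsg2, at a mean of 7.17. Dsg3 (GSMG0018102, 20510273 to 20547459), the desmoglein of basal layers of skin, was listed at 0 in Ctrl replicates 1 and 3 and in a3a6KO replicate 2. At these depths 0 reads allow up to 3.01, 2.75 and 3.96 normalised reads in those libraries, counting error only. Elsewhere Dsg3 reached 3.23 (Ctrl replicate 2), 4.54 (Ctrl replicate 4), 5.80 (a3a6KO replicate 1) and 21.4 (a3a6KO replicate 3), from 4, 6, 7 and 12 recovered reads. Both groups thus held libraries at 0, and per length Dsg2 made up 97.7% to 100% of the desmoglein transcripts.

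Both desmocollins were measured at low levels. Dsc2 (GSMG0018754, 20030633 to 20059554) had 59.2, 63.0, 38.6 and 46.1 normalised reads in Ctrl and 87.0, 73.8 and 60.5 in a3a6KO. All but 1 of the mutant values lay above all controls, and that of a3a6KO replicate 3 lay among the controls. The means were 51.7 ± 11.4 (SD, n = 4) and 73.8 ± 13.3 (SD, n = 3), and the log2 fold change was 0.51 (SE 0.26, 95% interval -0.08 to 1.11), with an unadjusted p of 0.0816 and a limma adjusted p of 0.789. This was the smallest p among the members. Across the 7 libraries rho between Dsc2 and the endothelial marker mean was 0.607, and r was 0.504, or 0.583 without the 2 farthest libraries. Its rho with basal markers was larger in size, -0.75 (r = -0.480, or -0.810 without the 2 farthest), and the endothelial rho of Jup was also 0.607 (r = 0.693, or 0.202 without the 2 farthest). Dsc3 (GSMG0018752, 19960930 to 20002099) had 65.3, 84.0, 80.8 and 32.5 normalised reads in Ctrl against 95.3, 63.3 and 121 in a3a6KO, with a log2 fold change of 0.54 (SE 0.37, 95% interval -0.31 to 1.38, limma adjusted p = 0.830). Ctrl replicate 4 was its lowest and a3a6KO replicate 3 its highest library, and the log2 fold change was 0.24 and 0.33 with the one or the other left out. Per length neither desmocollin led in all libraries, and the share of Dsc2 in their sum ran from 35.5% to 62.0%.

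P-cadherin was among the highest transcripts of the sorted cells. Cdh3 (GSMG0037755, chromosome 8, 106510852 to 106556911) had 10116, 8375, 8094 and 7628 normalised reads in Ctrl replicates 1 to 4 and 10526, 7517 and 10168 in a3a6KO replicates 1 to 3. The mutant libraries held both the highest and the lowest value. The means were 8553 ± 1087 (SD, n = 4) and 9404 ± 1644 (SD, n = 3), with a log2 fold change of 0.13 (SE 0.17, 95% interval -0.25 to 0.51, limma adjusted p = 0.902). Leaving out 1 library gave 0.040 (a3a6KO replicate 1) to 0.28 (a3a6KO replicate 2), and quantile normalisation gave 0.026. Cdh3 ranked 222 of 16889 by mean. Cdh1, which encodes E-cadherin, the cadherin of adherens junctions in luminal cells, had 1486 to 3501 normalised reads. Per length, Cdh3 made up 74.6% to 87.7% of the 2 cadherins together.

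Ordered by level per kilobase of exon, the members fell into steps. The median over the 7 libraries, in normalised reads per kilobase, was 4015 for Jup, 2176 for Pkp3 and 1910.4 for Cdh3. It was 318 for Pkp1, 109.7 for Dsg2 and 57.9 for the Dsp position. The last was divided by the exon length of Dsp, although only the outer ends and strand of the unnamed feature were matched. Dsc3 had 15.1, Dsc2 13.1, Pkp2 8.13 and Dsg3 0.463. Pkp3 and Cdh3 did not differ beyond their spread, with Pkp3 the higher in 4 of 7 libraries. Dsc3 was the higher of the desmocollins in 3 of 7 libraries, Dsc2 was above Pkp2 in 5 of 7, and the ranges of Pkp2 and Dsg3 also overlapped although Pkp2 was the higher in 7 of 7. At the lengths used, each of the other neighbouring pairs kept its order in all 7 libraries without overlap. On the same scale Krt14, whose product fills the filaments that desmosomes anchor, had a median of 28554, and Perp, a membrane protein of desmosomes, 15593. These lengths are the joined exons of GENCODE M21, which may differ from the authors' gene models. For Jup they do differ, since its counted feature reaches 100367022 at the far end, where GENCODE stops at 100368958. Reads from that stretch would make the level of Jup per kilobase, and its ratios and shares per length, too high. Whether the groups overlap in a ratio does not depend on the length.

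**Figure D2:**
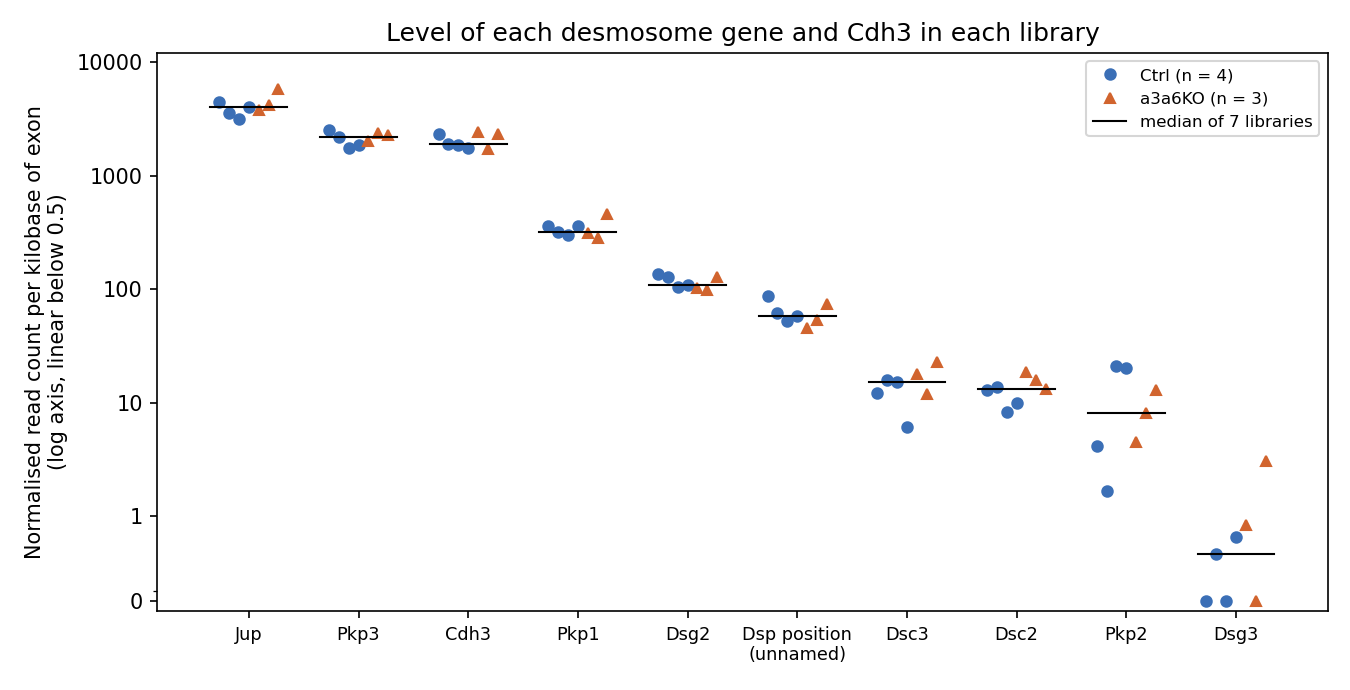
Normalised read count per kilobase of exon for each gene (log axis, linear below 0.5), with 1 point per library and a line at the median of 7 libraries. Levels step down from Jup (4015) to Dsg3 (0.463), and circles (Ctrl) and triangles (a3a6KO) overlap for every gene.

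No member passed the test between a3a6KO and Ctrl. Of the 8 named genes tested, 0 had an adjusted p under 0.05 with limma, edgeR's quasi-likelihood test or DESeq2, and 0 had an unadjusted limma p under 0.05. Over all 16889 features the shares passing were 0.0% for adjusted limma, 0.0% for edgeR and 0.456% for DESeq2. At an unadjusted p under 0.05, 6.32% of features passed with limma (1068 features), 1025 with edgeR and 1130 with DESeq2. The groups overlapped for all 8 genes, against 7.51% of features whose groups did not overlap, so a count of 0 among 8 genes is near that background. The fold change was above 0 for 7 of the 8 and below 0 for Dsg2, with Pkp1 and Pkp2 turning sign as above. Over all features it was above 0 for 8357 of 16889. The 8 genes share libraries, and a3a6KO replicate 3 was the highest for Jup, Pkp1 and Dsc3, so their directions are not separate observations. The median log2 fold change of the 8 was 0.12, against -0.0040 over all features. It was 0.28 without a3a6KO replicate 1, 0.23 without a3a6KO replicate 2, 0.21 without Ctrl replicate 1, and it was 0.071 when a3a6KO replicate 3 was left out. The median size of the fold change, sign aside, was 0.13 for the members and 0.20 for all features.

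The intervals show how large a difference the data leave possible. As linear folds of a3a6KO over Ctrl on the value + 1 scale, the 95% interval was 0.842 to 1.42 for Cdh3, 0.846 to 1.38 for Pkp3, 0.720 to 1.17 for Dsg2 and 0.775 to 1.36 for Pkp1. It was 0.887 to 1.62 for Jup, 0.946 to 2.16 for Dsc2 and 0.809 to 2.61 for Dsc3. For Pkp2 it reached from 0.275 to 3.86, too wide to place that gene. A p above the threshold does not show that the groups are alike.

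**Figure D3:**
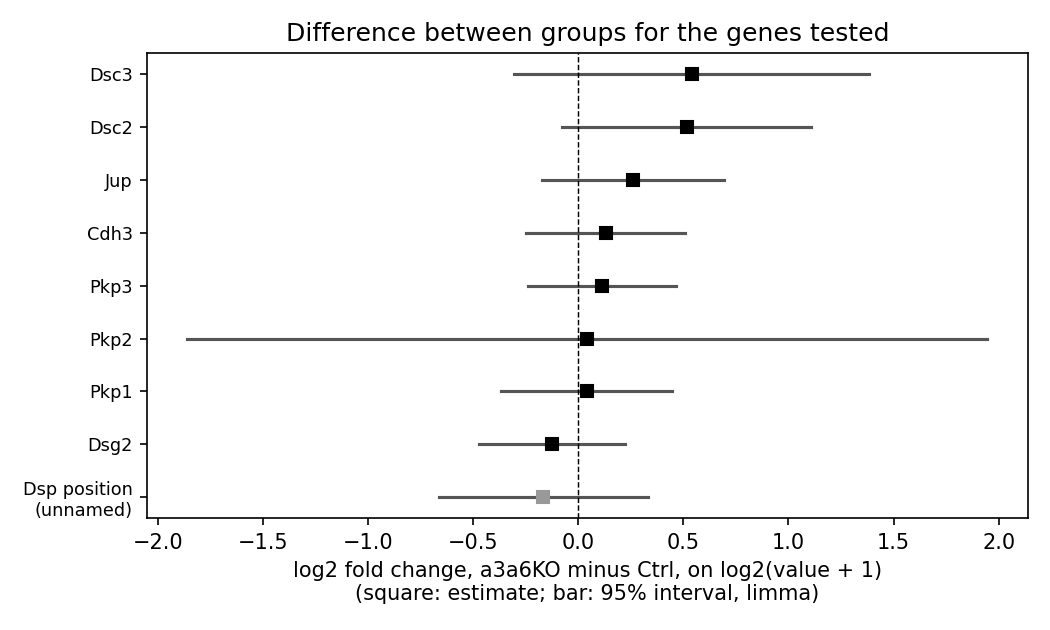
Log2 fold change, a3a6KO minus Ctrl on log2(value + 1), for the 8 named genes tested (black) and the Dsp position (grey), with limma's 95% interval as a bar. Every bar crosses 0, the widest is that of Pkp2 (-1.86 to 1.95), and the signs of Pkp1 and Pkp2 turned under other settings.

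Ratios between members within a library are nearly free of the library's scaling. For the pairs that contrast forms of simple and stratified epithelia, the log2 ratio of value + 1 differed between groups by -1.40 for Dsg2 over Dsg3 (8.80 ± 1.35 in Ctrl, n = 4, and 7.40 ± 2.08 in a3a6KO, n = 3, SD). It differed by -0.02 for Dsc2 over Dsc3 and by 0.0035 for Pkp2 over Pkp1. The groups overlapped in all 3 ratios. The first rests on the few reads of Dsg3: it was -0.49 without a3a6KO replicate 3, -0.96 without Ctrl replicate 1, -1.89 without Ctrl replicate 4, -2.54 without a3a6KO replicate 2 and -0.88 with a pseudocount of 5. The others turned sign as single libraries were left out, from -0.28 to 0.32 for Dsc2 over Dsc3 and from -0.63 to 0.54 for Pkp2 over Pkp1, and the latter was -0.088 with a pseudocount of 5.

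Among the 28 ratios between pairs of the 8 named genes, 1 (3.57%) had groups that did not overlap, against 7.51% of single features, so the count is no result about the members. Jup over Dsg2 per kilobase was 32.5, 28.1, 30.2 and 36.6 in Ctrl replicates 1 to 4 and 36.9, 42.9 and 45.0 in a3a6KO replicates 1 to 3. The gap between the groups was narrow, 36.6 against 36.9. Counting the Dsp position there were 36 ratios, of which 2 (5.56%, also under 7.51%) did not overlap, and the second was Jup over the Dsp position. That ratio was 51.5, 58.4, 60.2 and 69.4 in Ctrl and 83.1, 78.4 and 78.9 in a3a6KO, on average 59.9 ± 7.37 (SD, n = 4) against 80.1 ± 2.58 (SD, n = 3). Dsg2 and the Dsp position moved together over the 7 libraries (r = 0.896, rho = 0.893, r = 0.869 without the 2 libraries farthest from the median of the Dsp position), so these 2 ratios are not separate observations. Both were picked after their values were seen and were not tested.

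Of 15 shares of family members computed per length, groups overlapped in 14 and did not in 1, again near the 7.51% of single features. The shares of a family add up to the whole, and in a pair each share fixes the other. The 15 are therefore not separate observations, and the count is no result about the members. In that 1, Dsg2 made up 84.5%, 81.0%, 81.6% and 86.8% of the sum of Dsg2, Dsg3, Dsc2 and Dsc3 in Ctrl and 73.1%, 77.9% and 76.9% in a3a6KO. All mutant values were below all controls, on average 83.5% ± 2.69 (SD, n = 4) against 75.95% ± 2.50 (SD, n = 3). The share of Dsc2 was 6.54% to 8.66% in Ctrl and 7.79% to 13.5% in a3a6KO, and that of Dsc3 4.82% to 11.9% and 9.44% to 13.5%. Those shares overlapped. The Dsg2 share was noticed after its values were seen and was not tested, and Dsg2 counts for most of the sum.

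Jup over Ctnnb1, which encodes beta-catenin, the relative of plakoglobin in adherens junctions, was 3.64 to 4.38 per kilobase in Ctrl and 4.36 to 5.02 in a3a6KO, a small overlap. Cdh3 over Cdh1 was 4.52 ± 0.688 (SD, n = 4) and 4.76 ± 2.17 (SD, n = 3). Its mutant values spread from 2.93 to 7.16 and enclosed all controls.

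**Figure D4:**
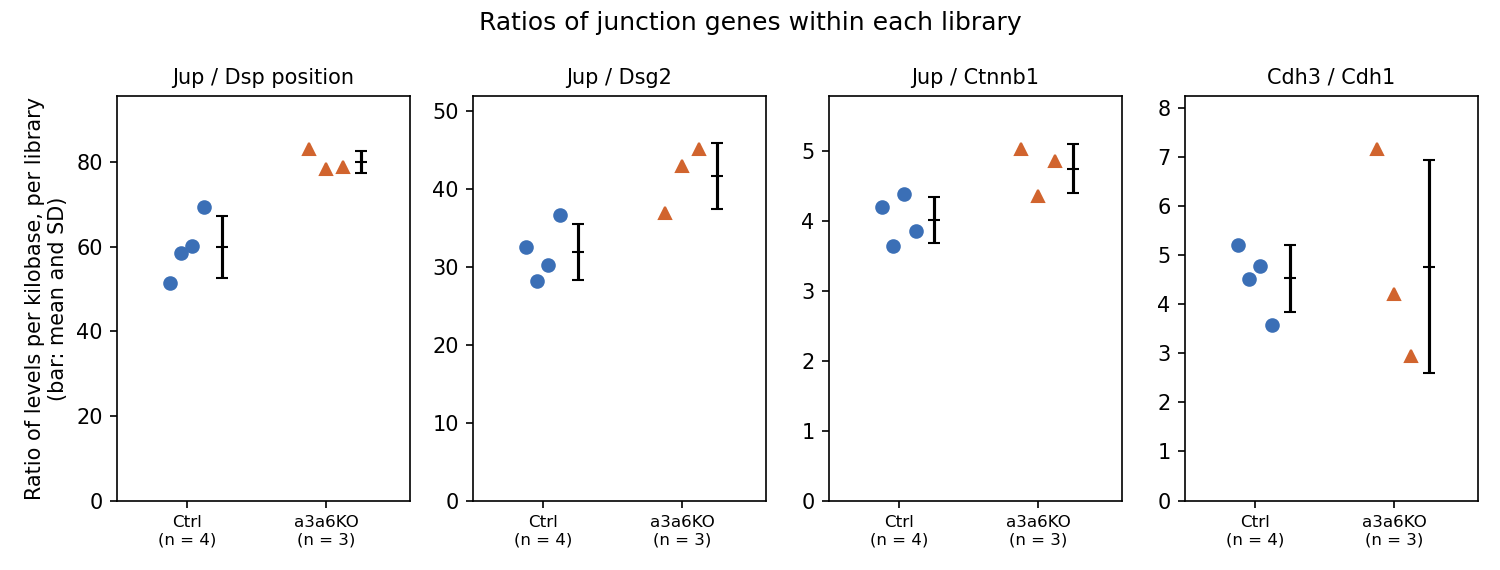
Ratio of levels per kilobase within each library for Jup over the Dsp position, Jup over Dsg2, Jup over Ctnnb1 and Cdh3 over Cdh1, with 1 point per library and the mean and SD of each group as a bar. The groups are apart for the first pair of panels (59.9 against 80.1 and 31.9 against 41.6 on average) and overlap in the others.

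Of 10 further desmosome genes, 4 were high enough to test and 0 passed limma's adjusted threshold. Perp was the highest, at 25234 to 33623 normalised reads, with a log2 fold change of 0.10. Ppl, the plaque protein periplakin, had -0.27 and Pkp4, an armadillo protein related to the plakophilins, 0.02. Pnn, a protein first described at desmosomes that also acts in the nucleus, was lower in every mutant library (-0.34, SE 0.16, unadjusted p = 0.0662, limma adjusted p = 0.789). It was the only 1 of these 4 genes with groups apart, where 7.51% of all features had groups apart in either direction. Dsg1a and Dsg1b, desmogleins of the upper epidermis, were listed at 0 in all 7 libraries, as were the epidermal genes Krt2, Krt77 and Flg. Epidermal genes were not absent as a set, since 4 others of that list were high enough to test. In normalised reads these were Lgals7 (3686 to 6925), Krt10 (45.4 to 79.1), Sbsn (24.9 to 53.7) and Lor (6.05 to 21.4). Dsc1, Dsg1c, Dsg4 and Evpl stayed under the level needed for a test, and Evpl, the envelope protein envoplakin, was at most 18.5.

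Of 17 adherens junction genes tested, 0 passed limma's adjusted threshold, 2 had an unadjusted p under 0.05, where 6.32% of all features did, and the median log2 fold change was 0.02. Those 2 were Nectin2, an adhesion receptor (0.80, SE 0.25, unadjusted p = 0.0119, limma adjusted p = 0.654), and Cdh13, a cadherin held by a lipid anchor (0.37, SE 0.15, unadjusted p = 0.0343, limma adjusted p = 0.741), each higher in all mutant libraries than in any control, where 7.51% of all features had groups apart in either direction. Nectin1, of the same list, had groups apart in the other direction. It had 321 to 346 normalised reads in Ctrl and 273 to 313 in a3a6KO (log2 fold change -0.21, limma unadjusted p = 0.149). Of 10 keratin genes tested, 0 had an unadjusted p under 0.05. Of 17 tested regulators that bear on desmosome genes or cell junctions, 0 passed limma's adjusted threshold and 2 had an unadjusted p under 0.05, again beside 6.32% of all features, so nothing particular to the list is read from them. These were the repressors of epithelial cadherin genes Snai1 (12.96 ± 7.66 in Ctrl, n = 4, and 34.4 ± 5.99 in a3a6KO, n = 3, SD) and Zeb2 (30.1 ± 9.01 and 58.4 ± 12.7), with log2 fold changes of 1.47 and 0.96 and limma adjusted p of 0.626 and 0.685. Both are low. Snai2 and Trp63, basal factors at means of 3288 and 3154, had log2 fold changes of -0.19 and 0.02.

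The genes whose profile over the 7 libraries was most like that of Cdh3 were Btbd9 (r = 0.953), Cmtm3 (0.936), Selenbp1 (0.929), Ccdc117 (0.923) and Igf1r (0.922), by Pearson's r on log2(value + 1) among 10353 genes with a mean of at least 50. Only 10 genes exceeded 0.9. The mean of the 7 named desmosome genes tested, each centred, was highest in a3a6KO replicate 3 (0.38) and lowest in Ctrl replicate 2 (-0.25), with -0.042 to -0.0012 in the others. Among the 5 closest to it were Mcm6 (r = 0.985), Ubtd1 (0.982), Ddr1 (0.976) and Rplp0 (0.964), with 40 genes above 0.9. The library farthest from the rest in this mean, a3a6KO replicate 3, was also the shallowest and received the lowest library weight in limma (0.467). With 7 libraries and so many genes these values only rank likeness.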

How the data were processed

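RNA of FACS-sorted basal cells was sequenced after SMARTer v4 library preparation, per the labels' protocols. The deposited signal values are gene counts that the authors divided by DESeq2 size factors (mm10), going by the file's title and the submitters' processing notes. Those notes list STAR 2.4.0, SAMtools, Picard and FastQC as well. They are not corrected for length. Values were whole multiples of 1 step per library within 0.01 of a read for 100% of values above 0, so reads were recovered (9368418 to 21548279 per library).

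The 7 libraries were grouped by genotype label, with no pairing or batch given. limma 3.58.1 (R 4.3.3, empirical Bayes with trend) was fitted on log2(value + 1) for the 16889 features with at least 10 in at least 3 libraries, two-sided, with Benjamini-Hochberg adjustment at 0.05. Alternatives were edgeR 4.0.16 and DESeq2 1.42.0 on the recovered reads, other pseudocounts, no filter, other scalings, library weights, a luminal covariate and leaving out each library. The limma and edgeR fits, but not DESeq2, were tested on simulated counts in which every gene had the same dispersion. Those counts do not show how the fits perform on small changes in these data.

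All 10 members are named. From other lists the rule names at most 4 genes by smallest p, plus at most 3 by highest mean in cell type lists, and 5 by likeness, of which 1 is not reported here. Members and lists were chosen with earlier results of these data known. Genes outside this rule, the Dsp position and the ratios other than Dsg2/Dsg3, Dsc2/Dsc3 and Pkp2/Pkp1 were chosen after values were seen.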

Additional observations from a re-analysis of the deposited data

How the results depend on the processing

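Under 16 alternatives the number of members called was 0 each time, and the median log2 fold change stayed between 0.070 and 0.28. It was 0.11 with the Dsp position counted as a member, an alternative chosen after seeing the data. Direction was kept under all 16 for Jup, Pkp3, Dsc2, Dsc3, Dsg2, Cdh3 and the Dsp position. Pkp1 turned from 0.04 to -0.0090 with quantile normalisation and -0.052 with library weights, and ran from -0.17 to 0.19 when each library was left out. Pkp2 turned from 0.04 to -0.049 with a pseudocount of 5, -0.52 with edgeR and -0.49 with DESeq2, and ran from -0.62 to 0.52 when each library was left out. The cause was not tested. The lowest adjusted p of any member was 0.562, for Dsc2 with the luminal covariate. No setting moved the median of all features by over 0.1. No paired analysis was possible because the labels carry no replicate numbers, and those used here only name libraries in order of deposition. Pkp2, Dsg3 and the desmocollins rest on few reads, and the 3 mutant libraries limit all comparisons.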
